A study of Mus musculus with 5 samples.

Results

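The collagen genes are described here, in RNA-seq libraries of cultured epidermal stem cells (EpSCs) from mouse skin, from which the keratinocytes of the epidermis arise. Members were all rows of the deposited table whose symbol is Col, a type number, the letter a and a chain number, which gave 43 of 17657 genes. They were grouped by the known structure of the protein into 11 fibrillar collagens, 6 chains of type IV collagen in basement membranes, 6 chains of type VI, 4 transmembrane collagens and 16 others. The mice were male C57BL/6, labelled 8 weeks, and the cells taken from their skin were grown with KGM2, a keratinocyte growth medium. The WT group holds 3 libraries of wild type cells (WT1, WT2, WT3) and the KO group 2 libraries of Angptl4 knockout cells (KO1, KO2). The KO allele is not described in the sources used here, nor is it stated whether each library is its own animal or culture. The p-values therefore reflect no more than the spread among these 5 samples, and that spread may be technical.

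Collagen chains wind into a triple helix, for which their sequence repeats the unit Gly-X-Y. Fibrillar collagens form the cables of the dermis and are made mainly by fibroblasts, while keratinocytes make the collagens that hold the epidermis to the layer beneath. Among these are type XVII, which spans the membrane at hemidesmosomes, type IV, the network of the basement membrane, and type VII, the anchoring fibrils below it. Type VI forms beaded microfilaments in the dermis, and collagens of the FACIT group (fibril-associated collagens with interrupted triple helices), such as type XII, sit on the surface of fibrils.

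The libraries held 20283084 to 20773407 counts each, and 1 CPM (counts scaled to the library total) then stands for about 20.28 to 20.77 counts. TPM is scaled by transcript length as well and is the scale used to compare levels between genes. Below, values in WT are in the order WT1, WT2 and WT3 and values in KO in the order KO1 and KO2, unless a range is given. Angptl4 itself (chromosome 17, 33774900 to 33781575) was at 6.97, 5.76 and 4.13 CPM in WT and 0.83 and 1.06 CPM in KO, so the groups did not overlap. Its log2 change was -2.56 ± 0.32 (SE; edgeR adjusted p = 0.00458), and did not pass with a separate spread for each group (limma-voom adjusted p = 0.127; lowest to highest in other settings 5.68e-09 to 0.127). The KO libraries differed from each other far more than the WT libraries did, with a biological coefficient of variation of 28.9% against 5.21%, so both are given apart throughout. The basal keratinocyte markers Krt5 and Krt14 were at 16550 to 17160 and 13690 to 14160 CPM in WT, and at 24520 and 16120 CPM in KO1 and 18450 and 13110 CPM in KO2.

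Promoter windows are shown for 5 genes, the 250 bases before the annotated RefSeq transcript start on GRCm38.p6, 5′ to 3′ on the strand of the gene. Col6a1 and Col6a2 are shown because they had the largest folds beside Col5a2 and lie next to each other, Col7a1 and Col17a1 because they anchor the epidermis, and Col1a2 as a fibrillar chain. Capitals mark matches on either strand to 4 short motifs. These were the CCAAT box, the GC box with its letters GGGCGG, the TATA box written as TATAAA, and the AP-1 motif written as TGANTCA. Col6a2 has a second window that is not shown (chr10:76623405-76623654, minus strand). It has 3 matches to GGGCGG, against 1 in the window shown.
Col6a1 (chr10:76726045-76726294, minus strand): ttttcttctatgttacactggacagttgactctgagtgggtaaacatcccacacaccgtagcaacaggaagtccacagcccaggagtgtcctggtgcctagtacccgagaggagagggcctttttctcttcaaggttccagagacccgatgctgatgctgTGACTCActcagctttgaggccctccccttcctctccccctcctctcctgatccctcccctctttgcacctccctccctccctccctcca
Col6a2 (chr10:76623631-76623880, minus strand): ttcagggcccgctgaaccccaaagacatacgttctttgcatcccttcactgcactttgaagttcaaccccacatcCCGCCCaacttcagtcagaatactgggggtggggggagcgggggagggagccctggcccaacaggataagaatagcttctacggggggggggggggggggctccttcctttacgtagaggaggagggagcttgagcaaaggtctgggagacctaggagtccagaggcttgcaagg
Col7a1 (chr9:108953336-108953585, plus strand): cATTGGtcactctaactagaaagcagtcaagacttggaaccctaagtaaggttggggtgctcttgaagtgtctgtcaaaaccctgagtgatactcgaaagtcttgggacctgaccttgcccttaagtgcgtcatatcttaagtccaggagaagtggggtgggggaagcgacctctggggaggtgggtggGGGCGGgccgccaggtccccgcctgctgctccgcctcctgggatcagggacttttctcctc
Col17a1 (chr19:47692043-47692292, minus strand): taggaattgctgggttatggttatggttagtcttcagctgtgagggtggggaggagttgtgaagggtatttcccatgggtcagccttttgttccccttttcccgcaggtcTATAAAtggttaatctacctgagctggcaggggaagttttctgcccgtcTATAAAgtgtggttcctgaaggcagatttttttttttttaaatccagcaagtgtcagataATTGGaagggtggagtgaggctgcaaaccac
Col1a2 (chr6:4505368-4505617, plus strand): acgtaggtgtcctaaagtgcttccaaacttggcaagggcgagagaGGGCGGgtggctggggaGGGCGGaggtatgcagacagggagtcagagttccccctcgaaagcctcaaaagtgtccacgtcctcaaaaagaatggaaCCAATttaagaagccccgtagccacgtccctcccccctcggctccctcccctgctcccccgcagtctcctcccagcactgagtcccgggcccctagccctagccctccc

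The reference table held 36 such windows for 34 of the 43 genes. CCAAT was found in 12 of them, against 33.8% of the 32851 windows of all genes, and GGGCGG in 22, against 32.7%. TATAAA was found in 5 windows, against 12.4% of all, and TGANTCA in the window of Col6a1 alone, against 6.75% of all. The median GC content was 59.4% in the collagen windows and 52.4% in all windows. A match is a description of the letters and not of a bound site.

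In the KO cells most measurable collagen genes were higher than in WT, from basement membrane and anchoring fibril chains that WT cells express well to fibrillar and type VI chains that were close to 0 in WT. Of the 43 genes, 28 passed the filter on low counts (about 10 counts in at least 2 libraries) and were tested. By edgeR's quasi-likelihood test with Benjamini-Hochberg adjustment over all 12957 tested genes, 19 of the 28 rose, 0 fell and 9 did not pass the threshold of 0.05. Over all tested genes 20.4% were called higher and 20.4% lower. The median log2 change was 1.76 over the 28 genes and 0.02 over all tested genes. At an unadjusted p under 0.05, 0 collagen genes were lower, and the share of all tested genes was not counted there. At an adjusted p under 0.05, DESeq2 and limma-voom called 0 and 0 collagen genes lower, against 22.1 and 21.1% of all tested genes. A rise of at least 2-fold was called for 18 of the 28, against 8.83% of all tested genes.

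Of the 28 genes, 6 (Col5a2, Col4a3, Col4a4, Col6a1, Col6a2 and Col9a3) passed the filter only through their KO libraries, and of the other 22 genes 13 rose. Both KO libraries lay above every WT library for 23 of the 28, against 32.5% of all tested genes. KO1 lay above every WT library for 27 genes, all but Col26a1, and KO2 for 24. The shares of all tested genes for each KO library alone were not counted, so these counts have no background. KO1 was above KO2 for 19 genes, and over all tested genes for 49.6%. The difference was at least 2-fold for 15 of the 19, a share also not counted over all genes. The 19 higher genes became 5, 7 and 9 without WT1, WT2 and WT3, 20 without KO1 and 26 without KO2, where the share called higher over all genes was 7.62, 8.81, 8.68, 29.3 and 30.0%. Col8a1, Col16a1 and Col27a1 were called lower without KO1 and Col26a1 without KO2, where 30.5 and 30.9% of all genes were called lower. With a separate spread for each group the count was 15, against 12.5% of all genes. It was 10 on log2 TPM for genes with a mean TPM of at least 1, against 18.3%.

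**Figure D1:**
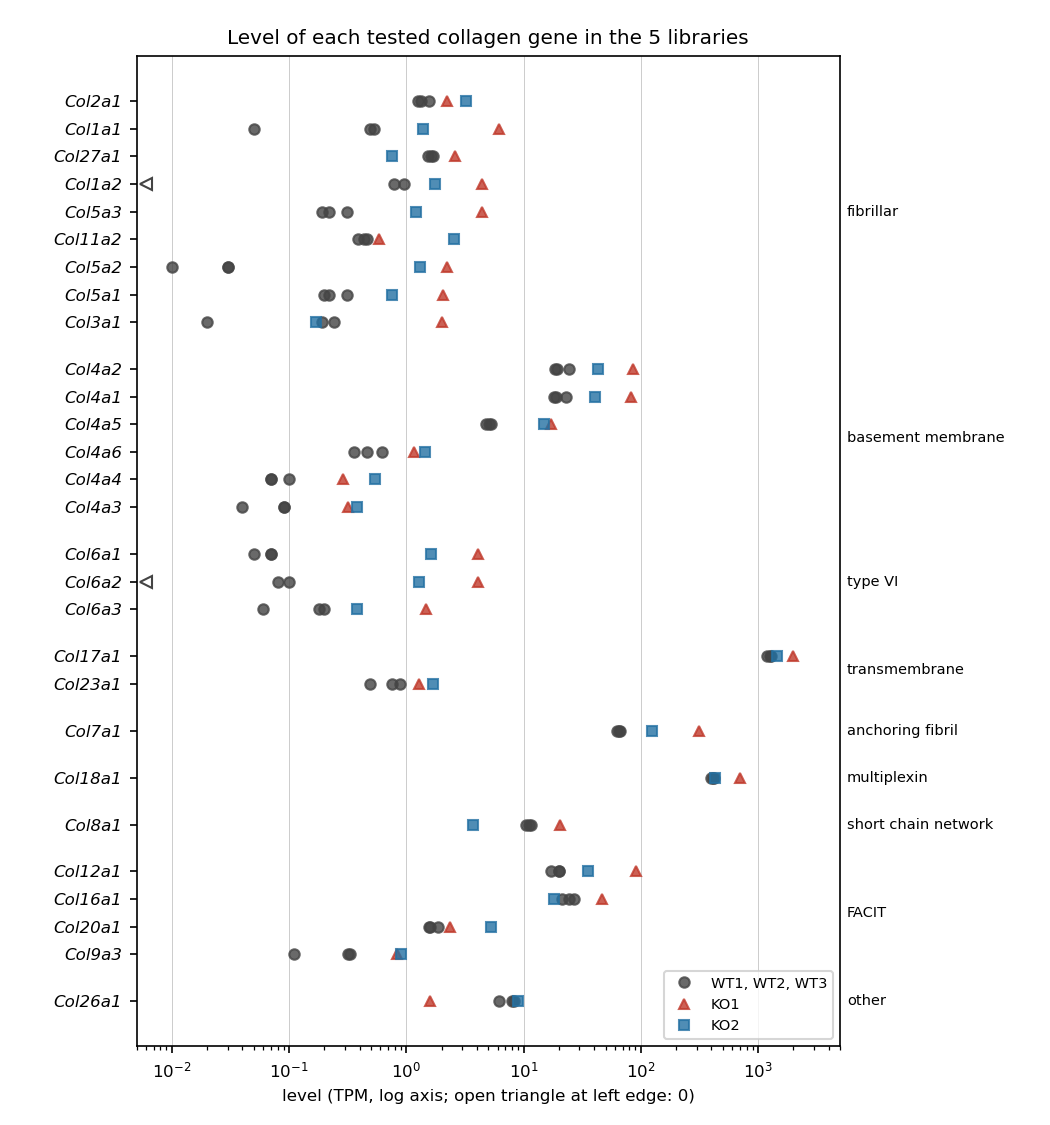
Level in TPM (log axis) of the 28 tested collagen genes in each library, by class, with WT libraries as dark grey circles, KO1 as red triangles and KO2 as blue squares, and open triangles at the left edge for 0. For 23 of the 28 genes both KO libraries lie to the right of every WT library, and Col17a1 is the most abundant in each library.

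**Figure D2:**
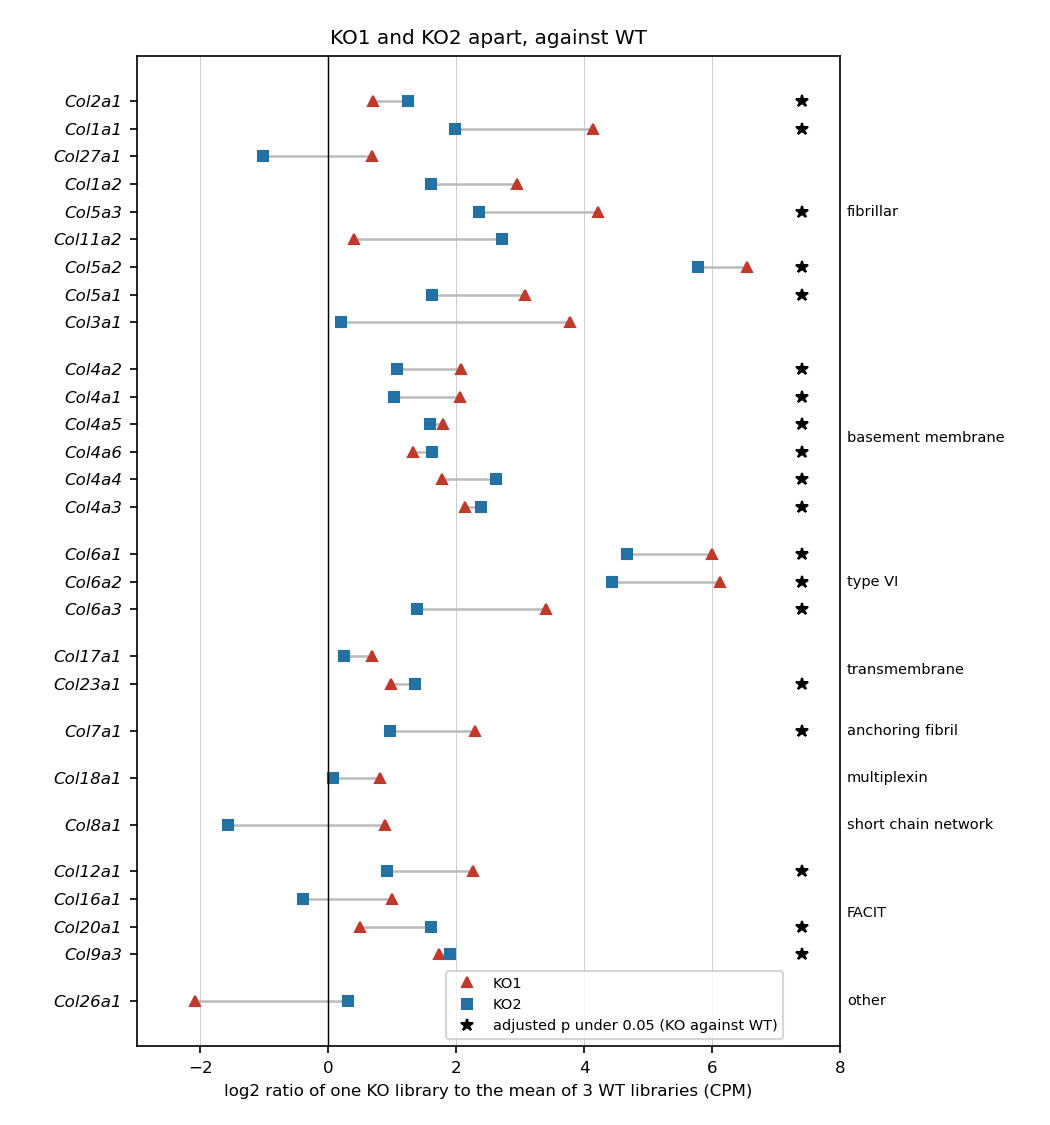
Log2 ratio of the CPM of KO1 (red triangle) and KO2 (blue square) to the mean of the 3 WT libraries for each tested collagen gene, by class, with a star for the 19 genes past the threshold. In 4 genes (Col27a1, Col8a1, Col16a1 and Col26a1) the KO libraries lie on opposite sides of the WT mean.

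Collagen RNA in these cells was mostly that of Col17a1 and Col18a1. Summed over the 43 genes, the level was 1892, 1834 and 1789 TPM in WT1, WT2 and WT3, 3370 TPM in KO1 and 2204 TPM in KO2. Col17a1 made up 66.9 to 68.5% of this sum in WT, 58.5% in KO1 and 66.3% in KO2, and Col18a1 21.7 to 22.9% in WT, 20.7% in KO1 and 19.3% in KO2. Col7a1 took 3.42 to 3.67% of collagen TPM in WT, 9.33% in KO1 and 5.66% in KO2. The fibrillar class, with the most genes, made up only 0.226 to 0.306% in WT, 0.793% in KO1 and 0.596% in KO2.

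**Figure D3:**
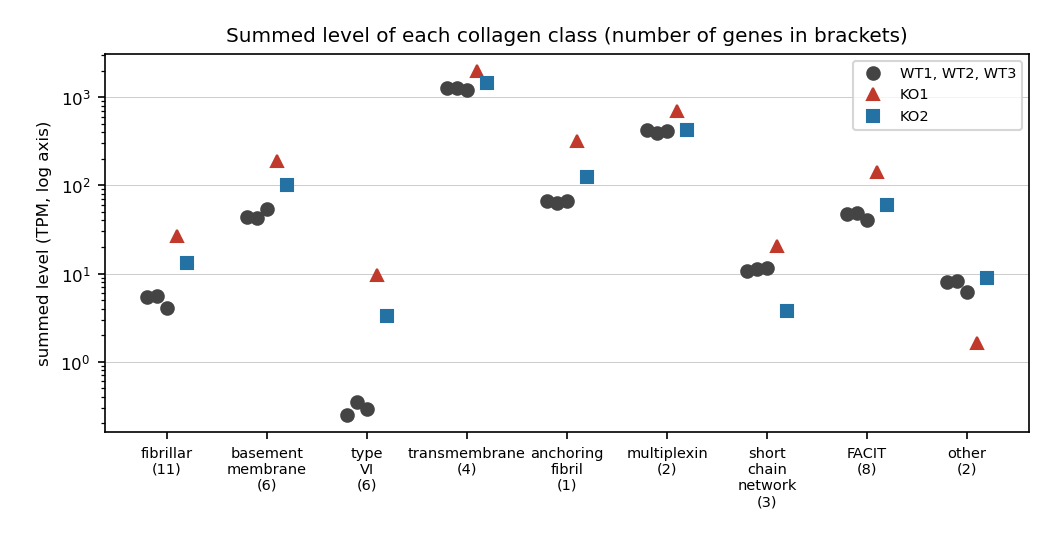
Sum of the TPM of all genes of each collagen class (log axis) in the 3 WT libraries (dark grey circles), KO1 (red triangles) and KO2 (blue squares), with the number of genes in brackets. The type VI sum was 0.25 to 0.35 TPM in WT, 9.63 in KO1 and 3.28 in KO2, and the transmembrane sum 1197 to 1287 TPM in WT, 1971 in KO1 and 1463 in KO2.

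Fibrillar collagens were scarce in WT, and 5 chains rose in KO. Of the 11 genes 9 were tested: 5 rose, 0 fell and 4 did not pass, with a median log2 change of 2.52 against 0.02 over all tested genes. The summed level of the class was 5.41, 5.62 and 4.04 TPM in WT1, WT2 and WT3, 26.7 TPM in KO1 and 13.1 TPM in KO2. In the skin, types I, III and V are made mainly by fibroblasts, and in bulk RNA the number of cells that express a gene and the RNA per cell cannot be told apart. The 5 higher genes became 1, 2 and 2 without WT1, WT2 and WT3, and Col5a2 alone was called in each of these fits.

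Type V collagen starts new fibrils and sets their width, and its 3 chains were all higher in KO. Col5a2 (chromosome 1, 45374331 to 45503282) was at 0.10, 0.05 and 0.10 CPM in WT and 7.54 and 4.45 CPM in KO. The groups are far apart, although the WT values rest on 5 counts in all, and the log2 rise was 6.11 ± 0.43 (SE; edgeR adjusted p = 0.00179). Col5a3 was at 0.68, 0.58 and 0.97 CPM in WT and 13.9 and 3.82 CPM in KO, a log2 rise of 3.56 ± 0.61 (edgeR adjusted p = 0.00973). Its call was lost without WT1 or WT2 (edgeR adjusted p = 0.0544 and 0.0511; lowest to highest in other settings 4.25e-07 to 0.0544). Col5a1 was at 0.93, 1.31 and 0.87 CPM in WT and 8.76 and 3.19 CPM in KO, a log2 rise of 2.52 ± 0.48 (edgeR adjusted p = 0.0133), lost without WT1 or WT3 (edgeR adjusted p = 0.0658 and 0.0636; lowest to highest in other settings 3.12e-05 to 0.0658). In each of the 3 genes KO1 was the higher KO library. The chains form trimers together, and the ratio of Col5a1 to Col5a2 in TPM was 0.923 in KO1 and 0.573 in KO2, against 6.67 to 31.0 in WT, where Col5a2 has 1 or 2 counts a library.

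Type I collagen, the main protein of dermal fibrils, is made of Col1a1 and Col1a2 chains. Col1a1 (chromosome 11, 94936224 to 94953042) was at 1.46, 1.60 and 0.15 CPM in WT and 18.9 and 4.21 CPM in KO. WT3 was well below the other WT libraries, KO1 stood far above KO2, and the groups did not overlap. The log2 rise was 3.43 ± 0.92 (edgeR adjusted p = 0.034), and it did not pass without WT1, WT2 or WT3 (edgeR adjusted p = 0.105, 0.0928 and 0.0769; lowest to highest in other settings 2.03e-04 to 0.105). Col1a2 was at 2.53, 2.08 and 0 CPM in WT and 11.9 and 4.69 CPM in KO, with a log2 change of 2.42 ± 1.06 that did not pass (edgeR adjusted p = 0.121). Col3a1, which joins type I in dermal fibrils, was at 0.54, 0.68 and 0.05 CPM in WT and 5.78 and 0.48 CPM in KO, and KO2 lay within the WT range (log2 change 2.88 ± 1.16, edgeR adjusted p = 0.101). The ratio of Col1a1 to Col1a2 in TPM was 0.510 and 0.671 in WT1 and WT2, 1.40 in KO1 and 0.789 in KO2.

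WT3 was thus low for all of these dermal chains, with 3, 0 and 1 counts of Col1a1, Col1a2 and Col3a1 against 30, 52 and 11 in WT1 and 33, 43 and 14 in WT2. A value of 0 counts allows up to 3 counts. The mesenchymal filament gene Vim was low in the same library, at 5.51 and 5.27 CPM in WT1 and WT2 and 0.83 CPM in WT3, and was at 9.40 and 4.01 CPM in KO1 and KO2. The proteoglycan Dcn was at 0.24, 0.24 and 0.05 CPM in WT and 0.98 and 0.68 CPM in KO. Not all fibroblast genes were low in WT3: Fbln1 was at 52.1, 51.7 and 51.4 CPM in WT and Fn1 at 353.5, 297.3 and 331.1 CPM. The dermal chain Col6a3 was at 0.24, 0.77 and 0.87 CPM in WT. The immune cell genes Cd74 and Lyz2 were low in WT3 too, at 4.92, 3.92 and 0.10 CPM and 1.11, 1.35 and 0.10 CPM in WT. The cause of the low values in WT3 was not tested.

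Markers of other skin cells were measured beside the collagens. Of 12 fibroblast markers 9 were tested, and 4 (Pdgfrb, Dcn, Thy1 and Postn) rose, 0 fell and 5 did not pass. Pdgfrb, Dcn and Postn passed the filter only through KO, and of the other 6 tested genes 1 rose. The 4 became 1, 2 and 1 without WT1, WT2 and WT3. Summed over all 12 markers the level was 298 to 313 TPM in WT, 567 TPM in KO1 and 269.5 TPM in KO2, most of it from Fbln2, Fn1 and Fbln1, which did not pass. The sum therefore says little of the scarce markers: Postn was at 0.05, 0.19 and 0.05 CPM in WT and 17.2 and 7.01 CPM in KO, and Thy1 at 1.85, 1.94 and 1.02 CPM in WT and 15.03 and 5.80 CPM in KO. Among the defining fibroblast markers, Pdgfra was at 0.97 to 1.71 CPM in WT and 2.45 and 1.98 CPM in KO, and Lum had 0, 1 and 0 counts in WT and 13 and 0 in KO. Dpt had 0 counts in each WT library and 8 and 2 in KO. Of 8 markers of pericytes and smooth muscle, 4 were tested and 3 (Cspg4, Acta2 and Mcam) rose (2 without WT1, WT2 or WT3), with a summed level over the list of 284 to 331 TPM in WT, 1845 TPM in KO1 and 696 TPM in KO2. Most of that sum was Acta2, smooth muscle actin, at 235.4, 229.9 and 262.4 CPM in WT and 1746 and 581.4 CPM in KO. Cspg4, a proteoglycan of pericytes, was at 0.24, 0.19 and 0.24 CPM in WT and 25.8 and 44.7 CPM in KO, a log2 rise of 7.24 ± 0.35 (edgeR adjusted p = 0.00084). Cspg4 passed the filter only through KO, with 14 counts over the WT libraries, and of the other 3 tested genes 2 rose. Tagln, on the same list, was at 7.96, 7.09 and 9.54 CPM in WT and 24.5 and 10.6 CPM in KO. Both KO libraries lay above every WT library, and it did not pass (log2 change 1.10 ± 0.36, edgeR adjusted p = 0.0596). The defining markers of that list were low in each library, with Rgs5 at 0 to 0.05 CPM in WT and 0.15 and 0.05 CPM in KO. Myh11 was at 0.10 to 0.15 CPM in WT and 0.88 and 0.43 CPM in KO. Endothelial, melanocyte, Schwann, immune and adipocyte markers had 4, 6, 2, 3 and 1 genes tested. Of these, 1, 1, 0, 1 and 0 were higher and 1, 0, 1, 0 and 1 lower. Beside these lists and those above, 20.4% of all tested genes were called higher and 20.4% lower. The summed levels of these lists were 4.11, 7.82, 26.9, 72.5 and 33.6 TPM in KO1 and 3.78, 10.6, 38.5, 69.2 and 31.2 TPM in KO2. In WT they were 3.78 to 4.23, 5.76 to 6.94, 48.4 to 50.5, 41.6 to 56.2 and 39.4 to 42.2 TPM. Most of the Schwann, immune and adipocyte sums came from Mbp, Cd68 and Lpl, at 47.3 to 49.6, 41.2 to 47.0 and 38.55 to 40.8 TPM in WT. The defining markers Sox10, Ptprc and Adipoq were at 0.07 to 0.11, 0.02 to 0.06 and 0 to 0.16 TPM in WT. In KO1 and KO2, Sox10 was at 0.18 and 0.31, Ptprc at 0 and 0.04, and Adipoq at 0 and 0 TPM. The part of these cells in the collagen values was not tested.

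The other fibrillar genes belong mostly to cartilage. Col2a1, its main fibril chain, was at 3.12, 3.92 and 3.35 CPM in WT and 5.63 and 8.17 CPM in KO. This was a log2 rise of 0.99 ± 0.23 (edgeR adjusted p = 0.0215), with KO2 the higher library, and it was lost on leaving out WT1, WT2 or WT3 (highest edgeR adjusted p = 0.0911; lowest to highest in other settings 7.33e-04 to 0.0911). Col11a2, a minor chain of cartilage fibrils, was at 1.32, 1.45 and 1.12 CPM in WT and 1.71 and 8.46 CPM in KO, so that KO2 alone stood apart, and it did not pass (log2 change 1.97 ± 0.66, edgeR adjusted p = 0.0616). Col27a1 was at 4.53, 4.06 and 5.24 CPM in WT and 7.44 and 2.27 CPM in KO, above every WT library in KO1 and below every WT library in KO2 (log2 change 0.07 ± 0.49, edgeR adjusted p = 0.915). Col11a1 and Col24a1 had too few counts to be tested.

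All 6 chains of type IV collagen, the network of the basement membrane, rose in KO. The median log2 change was 1.67, and in each of the 6 genes both KO libraries lay above every WT library, although Col4a3 and Col4a4 passed the filter only through KO. The summed level of the class was 43.9, 42.8 and 53.3 TPM in WT1, WT2 and WT3, 188 TPM in KO1 and 101 TPM in KO2. The 6 higher genes became 2, 3 and 5 without WT1, WT2 and WT3, and were 6 without KO1 and 6 without KO2.

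Col4a1 and Col4a2 encode the chains of the common form of the network. Col4a1 (chromosome 8, 11187756 to 11312889) was at 64.2, 61.5 and 77.9 CPM in WT and 283.4 and 138.5 CPM in KO. Col4a2 (chromosome 8, 11312805 to 11449287) was at 63.7, 60.9 and 79.7 CPM in WT and 288 and 143 CPM in KO. Both genes had WT3 as the highest WT library and KO1 well above KO2. The log2 rises were 1.64 ± 0.30 for Col4a1 and 1.66 ± 0.30 for Col4a2 (edgeR adjusted p = 0.0122 and 0.0116). Both calls were lost without WT1 or WT2 (Col4a1, edgeR adjusted p = 0.0616 and 0.0585, range over its alternatives 5.51e-06 to 0.0616; Col4a2, 0.0595 and 0.0562, range 3.5e-06 to 0.0595). The ratio of Col4a1 to Col4a2 in TPM was 0.984, 0.984 and 0.953 in WT1, WT2 and WT3, 0.961 in KO1 and 0.943 in KO2.

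These genes lie head to head and their annotated ends overlap by 85 bases. Their annotated RefSeq starts overlap by 22 bases, and the stretch that both transcripts share there (chr8:11312805-11312826, plus strand) is shown because the log2 changes of the pair were nearly equal.
Col4a1 and Col4a2 start overlap: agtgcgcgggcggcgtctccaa
Col4a3 and Col4a4 (chromosome 1) and Col4a5 and Col4a6 (chromosome X) are arranged head to head in the same way, with an overlap of 114 bases and a gap of 1293 bases. Where 2 genes overlap, reads from the shared bases cannot be assigned with certainty.

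Col4a5 and Col4a6 encode chains of the network found in the skin. Col4a5 (chromosome X, 141475370 to 141689236) was at 15.9, 17.4 and 16.9 CPM in WT and 57.7 and 50.2 CPM in KO. The KO libraries were close together here, and the log2 rise was 1.69 ± 0.10 (edgeR adjusted p = 0.00128). It was the only called collagen gene that was tested and called under all 16 alternatives (highest edgeR adjusted p = 0.0232). Col5a2, Col6a1 and Col6a2, with 5, 8 and 7 counts over the WT libraries, were called under each of the 15 alternatives that tested them. Col4a6 was at 1.51, 1.21 and 2.09 CPM in WT and 4.01 and 4.93 CPM in KO, a log2 rise of 1.48 ± 0.29 (edgeR adjusted p = 0.0135). That call was lost without WT1 or WT2 (edgeR adjusted p = 0.0683 and 0.0534; lowest to highest in other settings 3.11e-04 to 0.0683). In TPM Col4a5 was 8.23 to 14.6 times as high as Col4a6 in WT, 14.8 times in KO1 and 10.5 times in KO2.

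Col4a3 and Col4a4, chains of the network in kidney and lung, were at low levels. Col4a3 was at 0.39, 0.39 and 0.19 CPM in WT and 1.42 and 1.69 CPM in KO, a log2 rise of 2.24 ± 0.36 (edgeR adjusted p = 0.00831; lowest to highest in other settings 8.19e-04 to 0.0592), resting on 20 counts in WT and 64 in KO. Col4a4 was at 0.32, 0.50 and 0.34 CPM in WT and 1.32 and 2.37 CPM in KO, a log2 rise of 2.23 ± 0.38 (edgeR adjusted p = 0.0098), lost without WT1 or WT3 (edgeR adjusted p = 0.0536 and 0.0507; lowest to highest in other settings 7.06e-04 to 0.0536). The 3 genes Col4a3, Col4a4 and Col4a6 were higher in KO2 than in KO1, and Col4a1, Col4a2 and Col4a5 were higher in KO1.

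Type VI collagen, the beaded microfilament of the dermis, was nearly absent from the WT libraries. Its summed level was 0.25, 0.35 and 0.29 TPM in WT1, WT2 and WT3, 9.63 TPM in KO1 and 3.28 TPM in KO2. Col6a1, Col6a2 and Col6a3, the chains of the common form, all rose, and in each KO1 was the higher library. Col6a1 and Col6a2 passed the filter only through KO. The other 3 genes, Col6a4, Col6a5 and Col6a6, had 1 to 5 counts over the 5 libraries and were not tested.

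Col6a1 (chromosome 10, 76708792 to 76726044) was at 0.10, 0.15 and 0.15 CPM in WT and 8.27 and 3.29 CPM in KO, a log2 rise of 5.42 ± 0.56 (edgeR adjusted p = 0.00326). Col6a2 (chromosome 10, 76594109 to 76623630) was at 0.19, 0.15 and 0 CPM in WT and 7.88 and 2.46 CPM in KO, a log2 rise of 5.44 ± 0.85 (edgeR adjusted p = 0.00767). The groups were far apart in both genes, which lie 85.2 kb apart on the same strand, although the WT values rest on 8 and 7 counts in all. Both were called without each WT library. Col18a1, 326 kb from Col6a1 on the same strand, did not pass (log2 change 0.49).

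Col6a3 was at 0.24, 0.77 and 0.87 CPM in WT and 6.66 and 1.64 CPM in KO. KO1 was well above KO2, and the log2 rise of 2.71 ± 0.74 (edgeR adjusted p = 0.0358) was lost without WT1, WT2, WT3 or KO1 (highest edgeR adjusted p = 0.106; lowest to highest in other settings 2.45e-04 to 0.111). With a separate spread for each group it did not pass (limma-voom adjusted p = 0.0596). The ratio of Col6a1 to Col6a2 in TPM was 0.500 and 0.875 in WT1 and WT2, 0.993 in KO1 and 1.25 in KO2. That of Col6a3 to Col6a1 was 1.2, 2.57 and 2.86 in WT, where Col6a1 has 2 or 3 counts a library, and 0.365 and 0.236 in KO.

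Of the 4 transmembrane collagens 2 were tested, and 1 rose. Col17a1 (chromosome 19, 47646341 to 47692042), the hemidesmosome collagen that binds basal keratinocytes to the basement membrane, was at 3604, 3504 and 3354 CPM in WT and 5616 and 4150 CPM in KO. In TPM it was the most abundant collagen gene in each library, at 1196 to 1286 TPM in WT, 1970 TPM in KO1 and 1461 TPM in KO2. Both KO libraries lay above every WT library, but KO1 and KO2 were further apart than the WT libraries, and the log2 change of 0.49 ± 0.17 did not pass (edgeR adjusted p = 0.0708). It passed with DESeq2 (adjusted p = 0.0127), and its lowest and highest p in other settings were 4.83e-05 and 0.437. Of the hemidesmosome genes among the basal markers, the integrin Itgb4 rose by 0.49 ± 0.10 and the plakin Dst by 0.64 ± 0.18 on the log2 scale, and Itga6, the partner of Itgb4, fell by 0.91 (edgeR adjusted p = 0.0171, 0.0362 and 0.00413). Leaving out WT1, WT2 or WT3 ended the call of Itgb4 (edgeR adjusted p = 0.0837, 0.104 and 0.103; lowest to highest in other settings 3.39e-07 to 0.258) and that of Dst (edgeR adjusted p = 0.13, 0.132 and 0.117; lowest to highest in other settings 1.16e-05 to 0.182).

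Col23a1 was at 2.14, 2.18 and 1.41 CPM in WT and 3.77 and 4.88 CPM in KO. The groups did not overlap, and the log2 rise was 1.18 ± 0.27 (edgeR adjusted p = 0.0226). It was lost without WT1, WT2 or WT3 (edgeR adjusted p = 0.0747, 0.0684 and 0.0663; lowest to highest in other settings 0.00331 to 0.117). Col13a1 and Col25a1 had 5 and 3 counts over the 5 libraries.

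Col7a1 (chromosome 9, 108953586 to 108984875), the only chain of the anchoring fibrils, was at 315, 294 and 309 CPM in WT and 1506 and 595 CPM in KO. It had the highest level in TPM of the genes that rose, at 62.7 to 66.9 TPM in WT, 315 TPM in KO1 and 125 TPM in KO2. The WT libraries were close together, KO1 was 4.92 times and KO2 1.94 times the WT mean, and the log2 rise was 1.78 ± 0.37 (edgeR adjusted p = 0.0167). Leaving out WT1, WT2 or WT3 ended the call (edgeR adjusted p = 0.0729, 0.072 and 0.0716; lowest to highest in other settings 3.12e-07 to 0.0729).

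Col18a1, a heparan sulfate proteoglycan of basement membranes and the source of endostatin, was at 1084, 1015 and 1054 CPM in WT and 1834 and 1110 CPM in KO. KO2 was just above the highest WT library, and the gene did not pass (log2 change 0.49 ± 0.22, edgeR adjusted p = 0.13). Its relative Col15a1 had 10 counts over the 5 libraries. Col8a1, a short chain network collagen of vessels and wounds, was at 27.3, 28.9 and 30.3 CPM in WT and 53.4 and 9.68 CPM in KO. The KO libraries thus lay on either side of all WT libraries (log2 change 0.13 ± 0.64, edgeR adjusted p = 0.885).

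Of 8 FACIT genes 4 were tested, 3 rose and 1 did not pass. Col12a1 (chromosome 9, 79598987 to 79721141), which decorates type I fibrils, was at 112, 108 and 97.4 CPM in WT and 507.5 and 199.4 CPM in KO. KO1 was 4.79 times and KO2 1.88 times the WT mean, much as for Col7a1, and the log2 rise was 1.74 ± 0.37 (edgeR adjusted p = 0.0181). Col20a1 was at 5.94, 6.92 and 5.87 CPM in WT and 8.76 and 18.9 CPM in KO (log2 rise 1.15 ± 0.33, edgeR adjusted p = 0.041). Col9a3, a cartilage chain, was at 0.44, 0.15 and 0.44 CPM in WT and 1.13 and 1.27 CPM in KO (log2 rise 1.79 ± 0.46, edgeR adjusted p = 0.0298). All 3 calls were lost on leaving out WT1, WT2 or WT3 (highest edgeR adjusted p = 0.0779 for Col12a1, 0.131 for Col20a1 and 0.0783 for Col9a3; ranges over their alternatives 1.2e-06 to 0.0779, 3.63e-05 to 0.131 and 0.0158 to 0.142).

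Col16a1, a FACIT of the dermal-epidermal junction, was at 65.2, 70.4 and 56.5 CPM in WT and 127 and 48.7 CPM in KO. KO1 lay above and KO2 below every WT library (log2 change 0.45 ± 0.39, edgeR adjusted p = 0.384). Col26a1 was the only tested member with a negative log2 change (-0.45 ± 0.64, edgeR adjusted p = 0.599). It was at 9.55, 9.76 and 7.32 CPM in WT and 2.08 and 10.9 CPM in KO, so KO1 alone was low. Of the 16 genes outside the 4 main classes 8 were tested, and the 4 that rose became 0, 0 and 0 without WT1, WT2 and WT3. The 15 genes of all classes that were not tested had 1 to 36 counts over the 5 libraries, Col22a1 the most, and 13 of them had under 10 counts.

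The coding exons of the classes differ in length. The grouping was by protein structure, of which the Gly-X-Y repeat is a part, so this is not independent of the classes. A Gly-X-Y unit takes 9 bases, and in the GENCODE annotation of GRCm38, 535 of 649 coding exons of the fibrillar genes (82.4%) had a length that is a multiple of 9, with 305 (47.0%) of exactly 54 bases. Type IV genes had 136 of 296 exons in multiples of 9 (45.9%) and 12 of 54 bases. Type VI genes had 112 of 217 (51.6%) and transmembrane genes 109 of 158 (69.0%), with 17 and 14 exons of 54 bases. FACIT genes had 207 of 394 (52.5%), with 95 exons of 54 bases (24.1%). In Col9a2, Col9a3 and Col22a1 of that class, 43.8, 43.8 and 44.4% of exons had 54 bases. Exon counts are from the longest coding transcript of each gene and are a description.

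Genes that make, process and bind collagen moved with the chains in part. Of 45 such genes in 3 lists, 37 were tested, and 17 rose, 1 fell and 19 did not pass. Over all tested genes 20.4% were called higher and 20.4% lower. The median log2 change was 0.67, against 0.02 over all tested genes. The 17 became 10, 10 and 11 without WT1, WT2 and WT3, where 7.62, 8.81 and 8.68% of all genes were called higher. Among 20 tested genes of chain modification and folding in the endoplasmic reticulum 8 rose and 0 fell (median 0.51), and among 10 of propeptide removal and cross-linking 5 rose and 0 fell (median 1.57). Of those 10 genes, 4 (Adamts2, Adamts3, Lox and Loxl1) passed the filter only through the KO libraries. All 4 are among the 5 that rose, and of the other 6 tested genes 1 rose. Among 7 collagen receptors 4 rose and 1 fell. The 8, 5 and 4 higher genes became 3, 4 and 3 without WT1, 3, 4 and 3 without WT2, and 3, 5 and 3 without WT3.

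The called rises of the folding list were 0.50 to 1.79 on the log2 scale and those of the chains 0.99 to 6.11, a difference that was not tested. P3h1, which hydroxylates proline in collagen, was at 11.9, 11.1 and 11.9 CPM in WT and 33.6 and 27.7 CPM in KO, with the groups well apart (log2 rise 1.40 ± 0.11, edgeR adjusted p = 0.00232). Plod3, a lysyl hydroxylase, was at 54.4 to 59.7 CPM in WT and 93.6 and 90.2 CPM in KO, a log2 rise of 0.71 ± 0.07 (edgeR adjusted p = 0.00333). Creb3l1, a transcription factor of collagen secretion, was at 6.70 to 10.5 CPM in WT and 22.7 and 34.7 CPM in KO (log2 rise 1.79 ± 0.26, edgeR adjusted p = 0.00635). P4ha2, a subunit of prolyl 4-hydroxylase, rose by 0.78 ± 0.16 (edgeR adjusted p = 0.017), lost on leaving out WT1, WT2 or WT3 (highest edgeR adjusted p = 0.0721; lowest to highest in other settings 6.63e-05 to 0.0785). P3h1, Plod3 and Creb3l1 were called under all 16 alternatives.

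The called enzymes that act on secreted collagen were all low in WT. Loxl4, a lysyl oxidase that cross-links fibrils, was at 1.95, 1.60 and 2.14 CPM in WT and 7.29 and 11.0 CPM in KO (log2 rise 2.27 ± 0.25, edgeR adjusted p = 0.00368). Its relative Loxl1 was at 0.05 to 0.15 CPM in WT and 2.35 and 0.92 CPM in KO (log2 rise 3.78 ± 0.63, edgeR adjusted p = 0.00908). Adamts2, which removes propeptides from fibrillar procollagens, was at 0.28 to 0.55 CPM in WT and 2.42 and 2.43 CPM in KO (log2 rise 2.50 ± 0.31, edgeR adjusted p = 0.0043). Adamts3, of the same enzyme group, had 0 counts in each WT library and 41 over the KO libraries, at least 20.8-fold higher when set against 3 counts over the WT group (edgeR adjusted p = 0.00789). Lox, the founding lysyl oxidase, was at 0.10, 0.10 and 0.39 CPM in WT and 7.10 and 1.93 CPM in KO (log2 rise 4.50 ± 0.81, edgeR adjusted p = 0.0112), lost without WT1 or WT2 (edgeR adjusted p = 0.0578 and 0.0547; lowest to highest in other settings 4.93e-06 to 0.0578). The median of the list was 1.57 also with Adamts3 at that bound.

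Receptors of collagen moved in both directions. Itga2, the integrin chain by which keratinocytes bind fibrillar collagen, was at 853, 809 and 776 CPM in WT and 225 and 216 CPM in KO (log2 change -1.88 ± 0.09, edgeR adjusted p = 0.000921). It was the only gene of the 3 lists that fell, and the KO libraries were close together. Itga1, whose chain prefers type IV collagen, was at 0.49 to 0.87 CPM in WT and 4.41 and 4.93 CPM in KO (log2 rise 2.80 ± 0.29, edgeR adjusted p = 0.00321). The collagen-activated kinases Ddr1 and Ddr2 also rose, Ddr1 from 228 to 238 CPM in WT to 485 and 390 CPM in KO1 and KO2, and Ddr2 from 0.93 to 1.44 CPM to 6.21 and 10.2 CPM. Their log2 rises were 0.92 ± 0.11 and 2.71 ± 0.31 (edgeR adjusted p = 0.00423 and 0.00401). Itgb1, the shared partner of these integrins, did not pass (log2 change -0.34 ± 0.11, edgeR adjusted p = 0.0654).

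**Figure D4:**
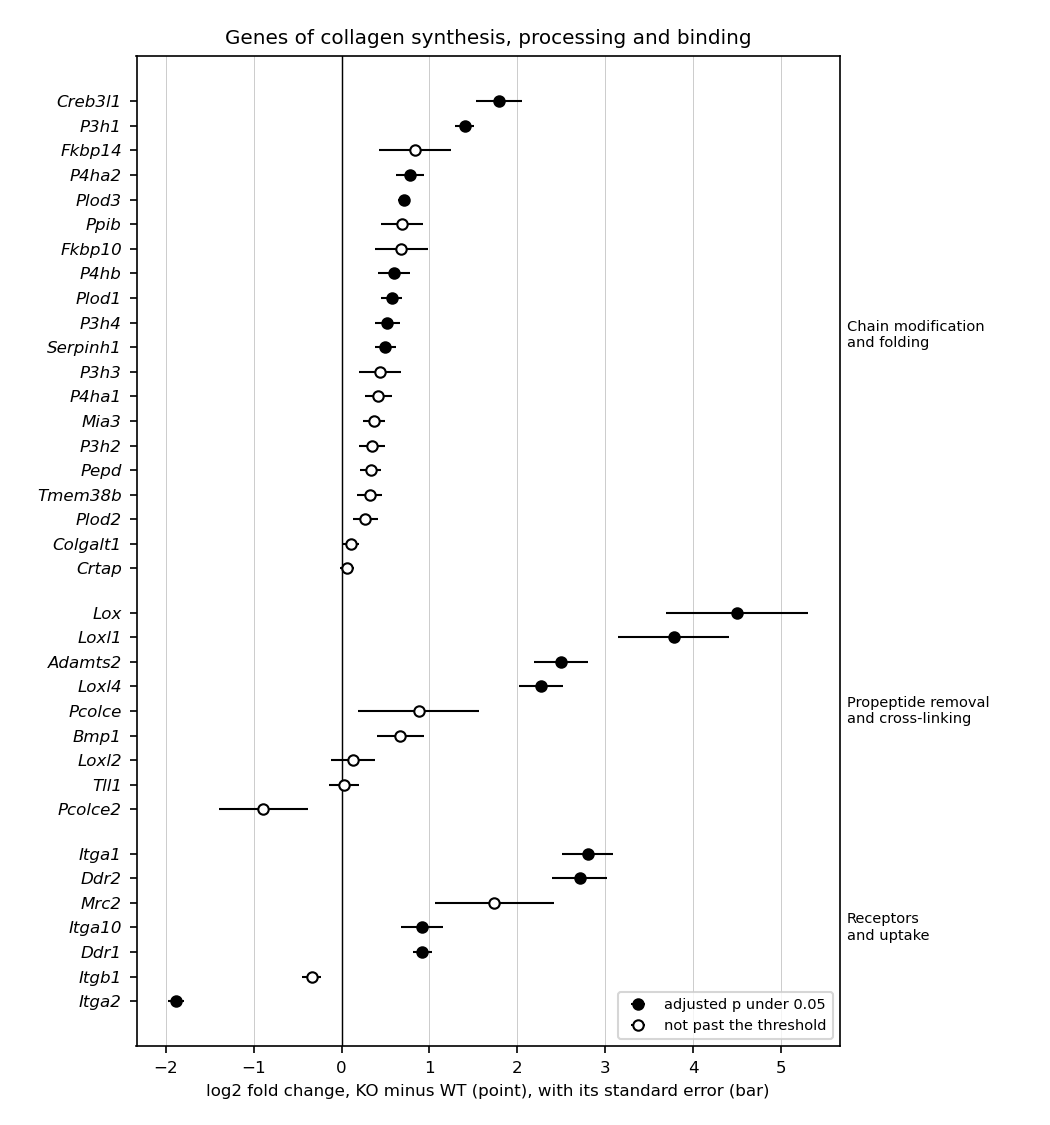
Log2 fold change, KO minus WT (points), with its standard error (bars) for the 36 tested genes of collagen synthesis, processing and binding that have counts in WT (all but Adamts3), by list, filled where the adjusted p was under 0.05. The rise is up to 1.79 in chain modification and folding (Creb3l1), while Lox and Loxl1 stand at 4.50 and 3.78 and Itga2 at -1.88.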

How the data were processed

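The authors deposited 1 table of 17657 genes with expected counts, TPM and FPKM for each library. The deposited expected counts were, per the submitters' processing notes, estimated with RSEM 1.3.1 on GRCm38.p6. RSEM divides reads that fit several transcripts, so counts need not be whole. TPM, named so per the file headers, is a level scaled to transcript length in each library. The deposited FPKM values were not used. Neither aligner nor strand setting is given in the sources used here. For 9 of the 43 collagen genes the strand in the table differed from GENCODE, whose strand was used.

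Expected counts were rounded and tested with edgeR 4.0.16 in R 4.3.3 (filterByExpr, TMM factors of 0.988 to 1.02, quasi-likelihood test, two-sided, no covariate, Benjamini-Hochberg over 12957 genes, threshold 0.05). The filter asks for 10 counts at the median library in 2 libraries and 15 in all. Alternatives were DESeq2 1.42.0 and its size factors, library totals, limma-voom (limma 3.58.1) with 1 spread or 1 per group, 2 other count filters, the replicate block, each library left out, and limma on log2 TPM with pseudocounts of 1 and 0.1. With 1 KO library left, it was assumed to vary like WT. No library was a copy of another: chi-square divided by its degrees of freedom was 3.41 to 6.35 for WT pairs and 107 for the KO pair. Members and lists were chosen with earlier results of these data known. Every tested collagen gene is named, and of the other lists up to 4 genes with the smallest p. Itgb4, Itga6, Itgb1, Lox and the cell markers printed were chosen after their values were seen. Col9a1 was not analysed here. Counting limits cover counting error only.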

Additional observations from a re-analysis of the deposited data

How the results depend on the processing

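Of the comparisons of single collagen genes with an alternative, 355 kept their side of the threshold, 61 lost the call and 13 gained one. The other 3 turned to the opposite direction past the threshold. Those 3 were Col16a1, Col8a1 and Col27a1 without KO1, at log2 changes of -0.41, -1.58 and -1.03. Without KO2 the log2 change was 0.90 for Col8a1 and 0.70 for Col27a1. Some genes that did not pass changed sign within the 355. With a separate spread per group, Col8a1 went from 0.13 to -0.35. The number of collagen genes called higher was 8 with the replicate block, 10 on log2 TPM with a mean TPM of at least 1 (fewer genes tested) and 5 to 26 with 1 library left out. The number called lower was 0 to 3 with 1 library left out. Over all genes tested in each setting, 1625 were higher and 1567 lower with a separate spread per group, 804 and 794 with the replicate block, and 980 to 3975 and 977 to 4093 with 1 library left out. For genes of collagen synthesis, processing and binding, those higher were 11 with the replicate block, 9 with a mean TPM of at least 1 and 10 to 29 with 1 library left out. Those lower were 2 with DESeq2, 2, 2 and 2 on the log2 TPM settings, and 1 to 3 with 1 library left out. The cause of these shifts was not tested.

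The labels give the groups the same replicate numbers but do not say that the numbers pair libraries. Deviations from the group means correlated at 0.01 for WT1 with KO1 and 0.07 for WT2 with KO2, across genes. WT3 has no partner under the replicate block, where Col4a3, called without each single library, did not pass (edgeR adjusted p = 0.0592). Genes with a WT mean under 1 CPM, 9 of the 28, rest on few counts in WT.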
